A study of Mus musculus with 6 samples.

Results

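Imprinted noncoding RNAs and imprinted genes were examined in RNA sequencing of CD4+Lrig1+ and CD4+Lrig1- T cells. The 7 genes are *Rian*, *Meg3*, *Mirg*, *Peg13*, *Kcnq1ot1*, *Igf2r* and *Impact*, of 45777 genes in the tables. All 7 were listed in both tables used. *Rian* was selected on its counts, which were 0 in the CD4+Lrig1- columns, so its difference is described with its values and was not tested. The other 6 are known imprinted genes or RNAs of imprinted loci.

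The cells came from the spleens of female C57BL/6 mice, an inbred strain, aged 7 weeks, and both groups were sorted by flow cytometry for CD4 and split by surface Lrig1, a transmembrane protein with leucine-rich repeats. No treatment or genetic change separated the groups. The labels list 6 samples, 3 in each group. The values here come from 4 libraries in 2 tables, called set 1 and set 2, each with 1 CD4+Lrig1+ and 1 CD4+Lrig1- library, and the labels do not say which mice each library came from, so p-values measure only the spread between these libraries. The study's methods describe its quantitative data as biologically independent experiments or samples. The libraries held between 44865070 and 59977951 estimated counts. *Lrig1* had 11508 and 7387 counts in CD4+Lrig1+ and 3609 and 1981 in CD4+Lrig1- T cells (set 1, then set 2, here and below). *Foxp3*, the lineage factor of regulatory T (Treg) cells, had 30616 and 35344 against 2343 and 1656. All 8 genes of the T cell identity list, *Cd4* and *Cd3e* among them, were detected in each library. In bulk RNA, fewer cells of a type and less RNA per cell cannot be told apart.

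An imprinted gene is transcribed mainly from the copy inherited from a given parent. The choice is set by DNA methylation placed on control regions in the egg or the sperm, and many imprinted clusters are organized around a long noncoding RNA that starts in or near such a region. *Meg3*, *Rian* and *Mirg* are noncoding RNAs of the maternal copy of the *Dlk1* to *Dio3* cluster, and they carry microRNAs and small nucleolar RNAs in their transcripts. *Kcnq1ot1* and *Airn* are noncoding RNAs of the paternal copy that silence neighbouring genes in cis, and *Peg13* is a paternal noncoding RNA inside an intron of *Trappc9*. *Igf2r* encodes the receptor that carries mannose 6-phosphate tagged enzymes to lysosomes and takes up IGF2, and *Impact* encodes an inhibitor of the eIF2α kinase GCN2. The files give no allele, so expression by parent of origin was not measured here.

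The start regions are shown to give their CG dinucleotides, and because the *Meg3* counts below were assigned to both annotated starts. A start region need not be the control region that carries an imprint, and methylation was not measured. The windows are RefSeq sequence of build GRCm38.p6 running from 250 bases before to 50 after the annotated start, 5′ to 3′ on the gene's strand. CG dinucleotides, the sites at which DNA methylation can be placed, are in capitals. The *Rian* window is chr12:109603695-109603994 on the plus strand, the windows of the upstream and downstream *Meg3* starts are chr12:109540746-109541045 and chr12:109545148-109545447 on the plus strand, and the *Kcnq1ot1* window is chr7:143296498-143296797 on the minus strand. For *Igf2r* the 250 bases before the start are shown, chr17:12769707-12769956 on the minus strand.
Rian: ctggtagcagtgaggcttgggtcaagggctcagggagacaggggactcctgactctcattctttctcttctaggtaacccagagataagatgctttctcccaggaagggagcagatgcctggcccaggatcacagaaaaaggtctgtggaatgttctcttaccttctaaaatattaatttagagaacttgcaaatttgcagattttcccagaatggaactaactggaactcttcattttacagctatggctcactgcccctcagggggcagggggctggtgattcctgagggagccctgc
Meg3 upstream start: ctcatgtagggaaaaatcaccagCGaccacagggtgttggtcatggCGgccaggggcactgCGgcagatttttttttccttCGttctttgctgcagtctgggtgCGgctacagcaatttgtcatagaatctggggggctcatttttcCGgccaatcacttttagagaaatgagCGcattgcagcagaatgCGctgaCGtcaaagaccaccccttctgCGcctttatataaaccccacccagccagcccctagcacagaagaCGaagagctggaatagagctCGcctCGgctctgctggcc
Meg3 downstream start: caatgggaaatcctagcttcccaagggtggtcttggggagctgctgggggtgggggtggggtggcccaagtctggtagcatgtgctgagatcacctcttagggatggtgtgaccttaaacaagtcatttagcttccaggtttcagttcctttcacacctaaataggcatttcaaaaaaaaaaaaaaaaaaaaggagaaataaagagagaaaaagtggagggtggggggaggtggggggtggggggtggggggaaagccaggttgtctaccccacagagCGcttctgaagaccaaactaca
Kcnq1ot1: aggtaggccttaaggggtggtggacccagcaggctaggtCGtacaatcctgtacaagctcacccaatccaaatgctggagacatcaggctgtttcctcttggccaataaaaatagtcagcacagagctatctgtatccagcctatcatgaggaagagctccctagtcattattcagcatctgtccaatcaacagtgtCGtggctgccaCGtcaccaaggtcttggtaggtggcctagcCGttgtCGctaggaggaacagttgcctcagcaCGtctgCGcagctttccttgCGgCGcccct
Igf2r: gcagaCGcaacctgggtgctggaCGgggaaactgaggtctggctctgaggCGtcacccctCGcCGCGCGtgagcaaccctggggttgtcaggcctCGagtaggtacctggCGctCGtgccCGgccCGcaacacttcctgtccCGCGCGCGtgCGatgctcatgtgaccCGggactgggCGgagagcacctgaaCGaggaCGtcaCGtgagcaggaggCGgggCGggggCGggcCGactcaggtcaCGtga

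The *Rian* window held 0 CG dinucleotides, and 94.6% of all 32851 RefSeq promoter windows held more. The upstream *Meg3* window held 13, the downstream *Meg3* window 1, the *Mirg* window 10, the *Kcnq1ot1* window 9 and the full *Igf2r* window 34. The median over all windows was 7.0, with quartiles of 3.0 and 20.0. Both strands were searched for 4 motifs. TGACGTCA, the cyclic AMP response element, was found 57 bases before the upstream *Meg3* start and in 1.79% of all windows. TATAAA occurred in the upstream *Meg3* window only among these, once on each strand with the matches overlapping, and in 13.6% of all windows. CCAAT was found in the upstream *Meg3*, *Mirg* and *Kcnq1ot1* windows, 3 times in the last, and in 37.4% of all windows. TCACGTGA, an E-box, was found 2 times in the *Igf2r* window and in 0.974% of all windows, and this palindrome reads the same on both strands. These matches describe the letters and were not tested for binding.

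*Rian* (gene ID 75745, chromosome 12 from 109603945 to 109661716, plus strand, a multi-exon noncoding RNA) was present in CD4+Lrig1+ libraries and had no counts in CD4+Lrig1- libraries. It had 156 and 52 counts in CD4+Lrig1+ and 0 and 0 in CD4+Lrig1- T cells. In TMM-normalized CPM (counts scaled to library size) these were 3.0 and 0.905 (1.95 ± 1.48, mean ± SD, n = 2) against 0. A count of 0 allows up to 3 counts in a library, or 0.0627 and 0.0555 CPM in the CD4+Lrig1- libraries, counting error only. The *Rian* counts were 47.9-fold above this floor in set 1 and 16.3-fold above it in set 2, with counting error in the CD4+Lrig1+ counts left out. The absence chose the gene. Of all 45777 genes, 82 (0.179%) had 0 counts in both CD4+Lrig1- libraries and at least 10 in each CD4+Lrig1+ library, and ranked by the lower CD4+Lrig1+ count *Rian* was number 9 of them, between *Medag* with a lower count of 53 and *Gm39612* with 51.

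*Meg3* (gene ID 17263, chromosome 12 from 109540996 to 109571729, plus strand), the first long RNA of the cluster, had 13 and 12 counts in CD4+Lrig1+ and 0 and 0 in CD4+Lrig1- T cells. The groups did not overlap, at a level far below that of *Rian*. It had 0.25 and 0.209 CPM (0.229 ± 0.029, SD, n = 2), 3.99-fold and 3.76-fold above the 3 counts that a 0 allows. *Meg3* belonged to the same 82 genes, at number 65, and it passed the filter on low counts only through the CD4+Lrig1+ libraries. By the quasi-likelihood test of edgeR, adjusted over 16123 genes by the Benjamini-Hochberg method, its p was 0.705. Adding the table as a term in the model (a replicate block, with 1 residual degree of freedom) gave an adjusted p of 0.0367. That model called 14.6% of all genes tested as higher and 12.8% as lower.

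The 2 CD4+Lrig1+ libraries assigned their *Meg3* counts to different transcripts. In set 1 all 13 counts fell on the transcript of 11473 bases that begins at the downstream start, 109545398. In set 2, 10 of 12 counts fell on a spliced transcript of 1913 bases and 2 on one of 11461 bases, both from the upstream start at 109540996. With so few counts the shares have wide Wilson 95% intervals, with a lower bound of 77.2% for the downstream transcript in set 1 and an upper bound of 24.2% in set 2. The transcripts of 11473 and 11461 bases end at the same base, 109568651. StringTie divides reads that transcripts share by estimate, and the intervals cover counting error only, so a change of start between the libraries was not shown.

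*Mirg* (gene ID 100040724, chromosome 12 from 109734981 to 109749458, plus strand), the host of a large microRNA cluster, had 6 counts in the CD4+Lrig1+ library of set 1 and 0 in the other 3 libraries. This was 0.115 CPM, 1.84-fold above what a 0 allows in the CD4+Lrig1- library of set 1. In set 2 both groups were at 0 and no fold can be given. *Mirg* did not pass the filter and was not tested.

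**Figure D1:**
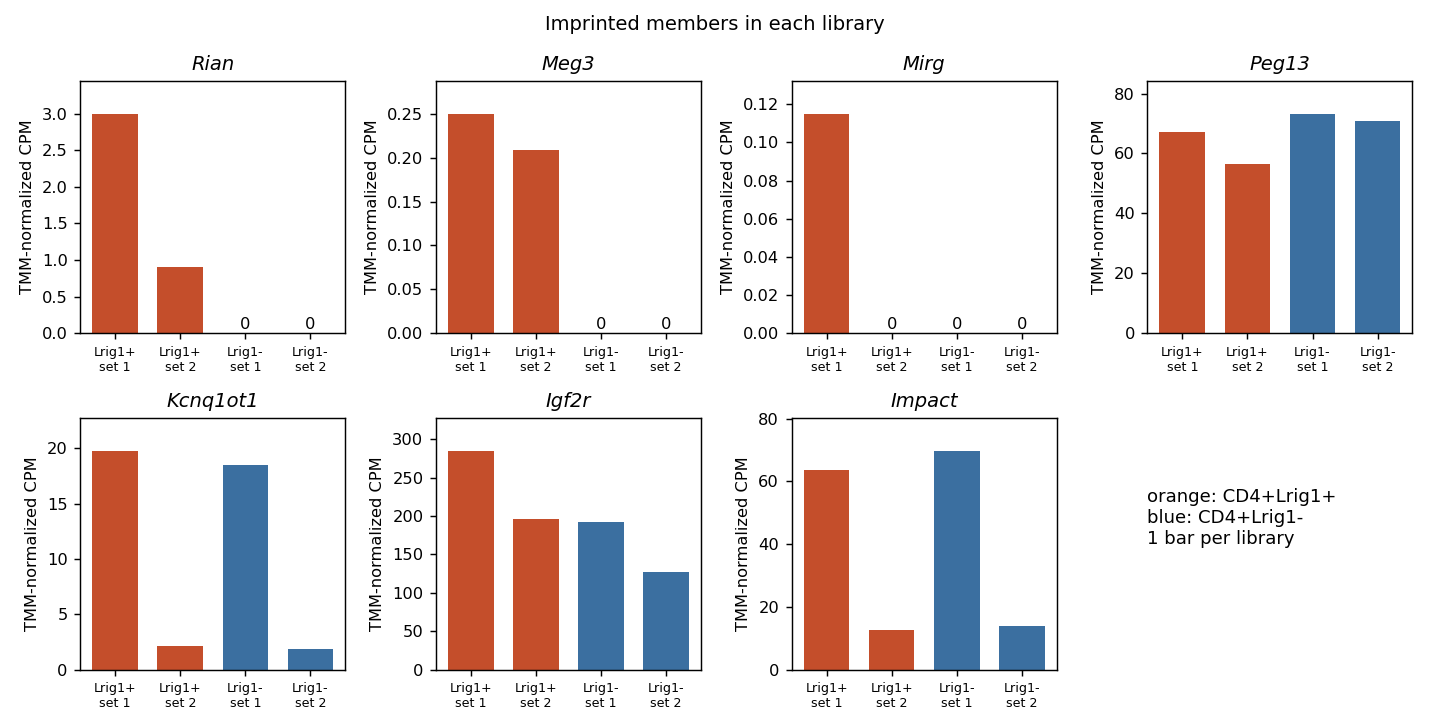
TMM-normalized CPM of each gene, 1 bar per library, with CD4+Lrig1+ in orange and CD4+Lrig1- in blue and a separate axis from 0 for each gene. *Rian* and *Meg3* have bars in the CD4+Lrig1+ libraries and 0 in the CD4+Lrig1- libraries, while *Kcnq1ot1* and *Impact* are high in both libraries of set 1 and low in both of set 2.

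The whole *Dlk1* to *Dio3* interval, from 109452485 to 110279230 on chromosome 12, holds 103 annotated genes, of which 61 are microRNA genes. In it, 90 genes had 0 counts in all 4 libraries. The protein-coding genes at its ends, *Dlk1*, a Notch ligand relative, and *Dio3*, a deiodinase that inactivates thyroid hormone, were both among those at 0. Of the 13 genes with any count, 13 and 7 were detected in the CD4+Lrig1+ libraries and 4 and 2 in the CD4+Lrig1- libraries, or 12 and 6 against 4 and 2 without *Rian*. The interval held 936 and 1311 counts in CD4+Lrig1+ and 327 and 1249 in CD4+Lrig1- T cells, most of them in set 2 from *Gm3379* alone. Without *Gm3379*, set aside after its counts were seen, and without *Rian*, whose values chose it, the sum was 459 and 74 against 10 and 5. In the CD4+Lrig1+ libraries most of this came from *Gm40576* (323 and 46 counts), described below, so the sum does not describe the interval as a whole.

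6 genes of the interval reached 10 counts in a library. Besides *Meg3* and *Rian* they were *Rtl1*, *Gm40576*, *Dio3os* and *Gm3379*. *Rtl1*, a retrotransposon-derived gene of the paternal copy, had 11 and 9 counts in CD4+Lrig1+ and 0 and 0 in CD4+Lrig1- T cells. It lies on the strand opposite *Meg3* and *Rian* and overlaps them by 6.83 kb and 0.474 kb, and the sources used here do not state whether reads were counted by strand, so reads of these genes cannot be told apart where they overlap. *Gm40576*, a predicted noncoding RNA near *Dio3*, had 323 and 46 counts in CD4+Lrig1+ and 3 and 0 in CD4+Lrig1- T cells. In set 1 this was a ratio of 99.1 (exact 95% counting interval 33.6 to 483.0), and in set 2 it was 14.4-fold above the 3 counts that a 0 allows. It passed the filter only through its CD4+Lrig1+ libraries, and its values are given as a description. *Dio3os*, antisense to *Dio3*, had 90 and 0 counts in CD4+Lrig1+ and 2 and 0 in CD4+Lrig1- T cells. Its groups overlapped at 0 in set 2. *Gm3379*, a single-exon locus of 743 bases, had 321 and 1185 counts in CD4+Lrig1+ and 317 and 1244 in CD4+Lrig1- T cells, and its groups overlapped.

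**Figure D2:**
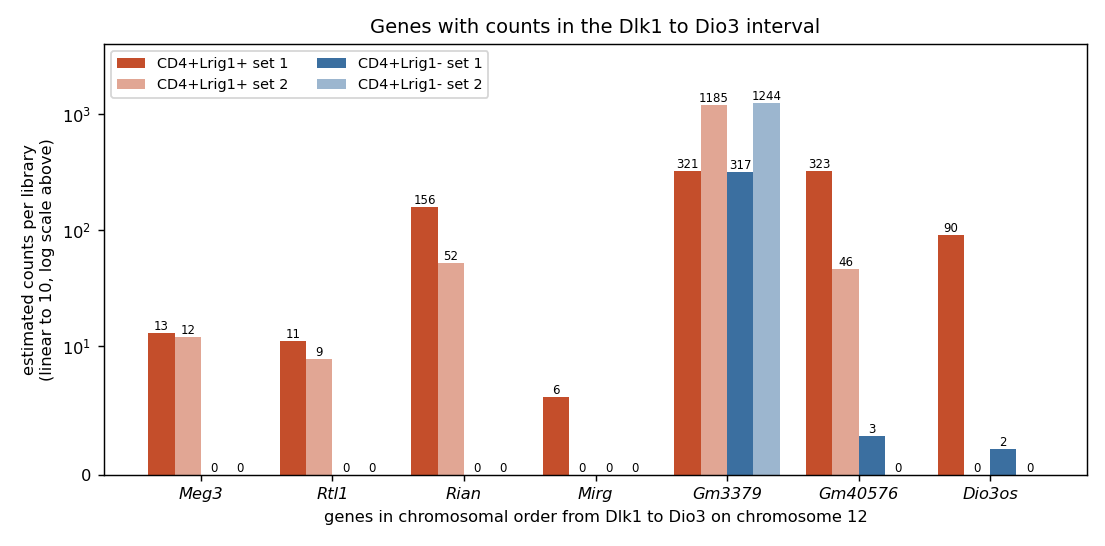
Estimated counts per library for the genes of the *Dlk1* to *Dio3* interval with at least 10 counts in a library, and for *Mirg*, in chromosomal order (axis linear to 10 and logarithmic above, the count written over each bar). Of the 7 genes, *Gm3379* alone reached more than 3 counts in a CD4+Lrig1- library.

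The small RNAs carried by the cluster are shown to name what the *Rian* and *Mirg* transcripts hold. The *Rian* span holds 3 microRNA genes and 11 other annotated small RNAs or predicted loci, and that of *Mirg* holds 10 microRNA genes. The mature microRNAs of the *Rian* span, and a pair from the *Mirg* span that share a seed (miR-453 and miR-496a-5p), are given from RefSeq, 5′ to 3′, with the seed, bases 2 to 8, in capitals.
mmu-miR-341-5p: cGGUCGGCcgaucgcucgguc
mmu-miR-341-3p: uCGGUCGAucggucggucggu
mmu-miR-1188-5p: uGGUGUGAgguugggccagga
mmu-miR-1188-3p: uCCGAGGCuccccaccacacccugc
mmu-miR-370-5p: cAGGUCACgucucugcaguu
mmu-miR-370-3p: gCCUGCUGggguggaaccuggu
mmu-miR-453: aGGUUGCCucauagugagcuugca
mmu-miR-496a-5p: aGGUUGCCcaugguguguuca

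The microRNA genes of the *Rian* span, *Mir341*, *Mir1188* and *Mir370*, had 0 counts in every library. Over the interval, 4 microRNA genes had a count, and the largest was 4. The mRNA kit does not capture mature microRNAs, so these counts are no measure of them.

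*Peg13* (gene ID 353342, chromosome 15 from 72805602 to 72810324, minus strand) was abundant in every library. It had 3501 and 3248 counts in CD4+Lrig1+ and 3505 and 3816 in CD4+Lrig1- T cells, or 67.3 and 56.6 against 73.2 and 70.7 CPM. Both CD4+Lrig1- libraries were above both CD4+Lrig1+ libraries, which 11.8% of the genes tested also showed, against 14.3% in the other direction. The ratio of CD4+Lrig1+ to CD4+Lrig1- was 0.92 (exact 95% counting interval 0.877 to 0.964) in set 1 and 0.80 (0.764 to 0.839) in set 2. Over the 4 libraries the log2 fold change was -0.22 (SE 0.27, adjusted p = 1.0 in the quasi-likelihood test). In that test with the table as a term it was -0.22 (SE 0.08, adjusted p = 0.0843). *Trappc9*, the gene that holds *Peg13* in an intron on the same strand, had 2598 and 3197 counts in CD4+Lrig1+ and 2008 and 2248 in CD4+Lrig1- T cells. Its within-set log2 ratios were 0.25 and 0.42, opposite in sign to the -0.12 and -0.32 of *Peg13*. Its adjusted p was 1.0, and 0.0247 with the table as a term. Strand cannot separate reads of the pair in the 4.72 kb that they share. *Kcnk9*, an imprinted potassium channel of the locus, had 0 counts in all libraries.

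*Kcnq1ot1* (gene ID 63830, chromosome 7 from 143213111 to 143296547, minus strand) had 1030 and 121 counts in CD4+Lrig1+ and 886 and 100 in CD4+Lrig1- T cells. The libraries split by set and not by group. In CPM the values were 19.8 and 2.11 against 18.5 and 1.85. The ratio of CD4+Lrig1+ to CD4+Lrig1- was 1.07 (exact 95% counting interval 0.977 to 1.17) in set 1 and 1.14 (0.866 to 1.5) in set 2. The log2 fold change over the 4 libraries was 0.11 (SE 1.53, adjusted p = 1.0), an SE that includes the difference between the sets. In the quasi-likelihood test with the table as a term it was 0.13 (SE 0.13, adjusted p = 0.508). *Kcnq1*, the channel gene that *Kcnq1ot1* is antisense to, had 0 and 6 counts in CD4+Lrig1+ and 1 and 0 in CD4+Lrig1- T cells. The pair overlaps by 83.4 kb. As for *Rtl1*, counting by strand is not stated, so reads of the pair cannot be told apart there. *Cdkn1c*, a cyclin-dependent kinase inhibitor of the same domain, had 102 and 143 counts in CD4+Lrig1+ and 56 and 71 in CD4+Lrig1- T cells. Its adjusted p was 1.0, and 0.0806 with the table as a term.

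*Igf2r* (gene ID 16004, chromosome 17 from 12682406 to 12769706, minus strand) had more counts in the CD4+Lrig1+ than the CD4+Lrig1- library of each set. It had 14806 and 11260 counts in CD4+Lrig1+ and 9197 and 6869 in CD4+Lrig1- T cells, or 285 and 196 against 192 and 127 CPM. The CD4+Lrig1+ library of set 2 was just above the CD4+Lrig1- library of set 1, so the groups did not overlap but nearly met. Such a separation in this direction was seen for 14.3% of the genes tested. Within the sets the ratio was 1.48 (exact 95% counting interval 1.44 to 1.52) and 1.54 (1.5 to 1.59). The log2 fold change was 0.59 (SE 0.41, adjusted p = 1.0) in the quasi-likelihood test, and 0.60 (SE 0.08, adjusted p = 0.00133) with the table as a term. An exact permutation test of 2 libraries against 2 cannot give a p below 0.333.

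The neighbours of *Igf2r* had different values. *Airn*, the noncoding RNA that overlaps *Igf2r* by 28.4 kb on the opposite strand, had 315 and 95 counts in CD4+Lrig1+ and 300 and 96 in CD4+Lrig1- T cells. Its within-set log2 ratios were -0.05 and -0.10 with an adjusted p of 1.0 (0.831 with the table as a term). As for *Rtl1*, counting by strand is not stated, so reads of *Airn* and *Igf2r* cannot be told apart where they overlap. *Slc22a2*, an organic cation transporter gene, had 137 and 302 counts in CD4+Lrig1+ and 3 and 7 in CD4+Lrig1- T cells, and it passed the filter only through the CD4+Lrig1+ libraries. *Slc22a3*, its relative further along the chromosome, had 5 and 15 counts in CD4+Lrig1+ and 15 and 37 in CD4+Lrig1- T cells. The ratios of *Slc22a3* were 0.307 (exact 95% counting interval 0.0873 to 0.888) and 0.381 (0.194 to 0.712), and its adjusted p was 1.0 (0.135 with the table as a term).

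*Impact* (gene ID 16210, chromosome 18 from 12954690 to 12992950, plus strand) had 3305 and 717 counts in CD4+Lrig1+ and 3342 and 745 in CD4+Lrig1- T cells. Like *Kcnq1ot1* it split by set and not by group. The values were 63.6 and 12.5 against 69.8 and 13.8 CPM. The ratio of CD4+Lrig1+ to CD4+Lrig1- was 0.911 (exact 95% counting interval 0.868 to 0.956) in set 1 and 0.905 (0.816 to 1.0) in set 2. The log2 fold change was -0.14 (SE 1.14, adjusted p = 1.0), an SE that includes the difference between the sets. In the quasi-likelihood test with the table as a term it was -0.14 (SE 0.08, adjusted p = 0.27).

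*Kcnq1ot1* and *Impact* differed more between the sets than most genes tested. The log2 difference of set 1 over set 2 was 3.21 among CD4+Lrig1+ and 3.29 among CD4+Lrig1- libraries for *Kcnq1ot1*, 2.34 and 2.34 for *Impact*, and 1.85 and 1.80 for *Airn*. For *Igf2r* it was 0.54 and 0.59 and for *Peg13* 0.25 and 0.05, and the median of the genes tested was 0.05 and 0.0. Of the 16123 genes tested, 1351 (8.38%) differed by a log2 of at least 2 in this direction in both groups. The tables were made separately, and the cause of this difference was not tested.

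The annotated transcripts of *Impact* took different shares in the sets. The 2 transcripts of 12009 and 12430 bases, predicted by RefSeq, took 97.2% of the gene's counts (Wilson 95% interval 96.5% to 97.7%) in the CD4+Lrig1+ and 95.7% (94.9% to 96.3%) in the CD4+Lrig1- library of set 1. In set 2 they took 9.07% (7.18% to 11.4%) and 42.8% (39.3% to 46.4%). The curated transcript of 3763 bases took most of the rest. StringTie divides reads that transcripts share by estimate, and the intervals cover counting error only.

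**Figure D3:**
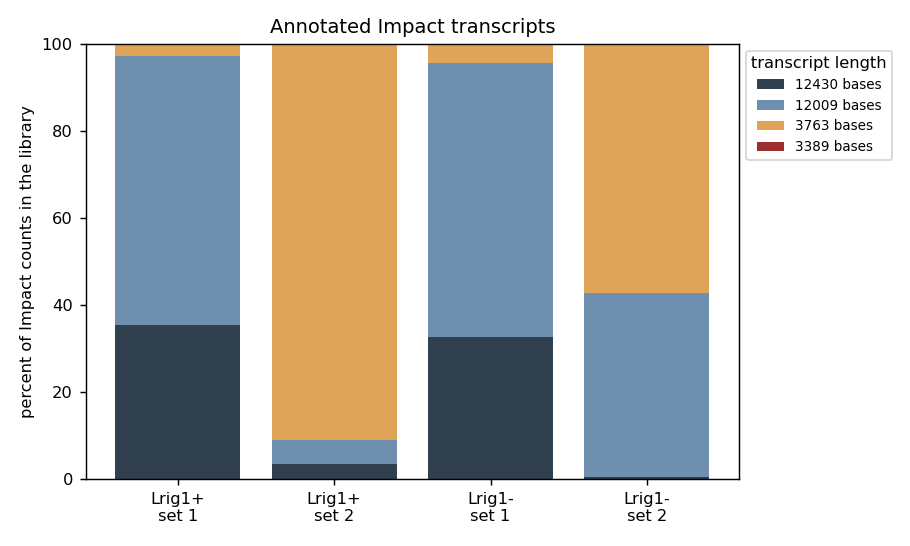
Share of the *Impact* counts of each library given to its annotated transcripts, in percent, stacked by transcript length. The 2 longest transcripts take over 90% in both libraries of set 1, and the transcript of 3763 bases takes 90.9% and 57.2% in the CD4+Lrig1+ and CD4+Lrig1- libraries of set 2.

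Levels of different genes were compared per length, in the authors' TPM (abundance scaled by transcript length and library) summed over each gene's transcripts. In the CD4+Lrig1+ library of set 1 the order was *Igf2r* (79.6), *Peg13* (35.6), *Impact* (13.9), *Rian* (2.08), *Kcnq1ot1* (0.593), *Mirg* (0.211) and *Meg3* (0.0511). In the CD4+Lrig1- library of set 1 *Igf2r* (55.2), *Peg13* (39.8), *Impact* (16.2) and *Kcnq1ot1* (0.569) kept this order and the others were at 0. In set 2 *Igf2r* had 33.5 and 20.1, *Peg13* 18.3 and 21.1, and *Impact* 4.74 and 3.64 TPM in CD4+Lrig1+ and CD4+Lrig1- T cells. *Igf2r* and *Peg13* thus changed places in the CD4+Lrig1- library of set 2. In the CD4+Lrig1+ library of set 2 *Rian* had 0.379, *Meg3* 0.133 and *Kcnq1ot1* 0.0385 TPM.

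In the test by group alone, 0.0% of the 16123 genes were called higher and 0.0% lower. Of the 5 genes other than *Rian* that passed the filter, 0 were called by edgeR's quasi-likelihood test, 1 (*Meg3*) had an unadjusted p under 0.05, and limma and DESeq2 called 0 (DESeq2 gave *Meg3* no adjusted p). Of all genes tested, 4.18% had an unadjusted p under 0.05 in the higher and 1.41% in the lower direction. With the table as a term, *Igf2r* was called higher and 0 were called lower, beside 14.6% and 12.8% of all genes tested. *Meg3* also had an adjusted p under 0.05 in that model, but it was admitted to the test only by the libraries in which it was high.

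Of a list of 74 other imprinted genes, 73 were in the tables, 18 of them had 0 counts in all libraries, and 36 passed the filter. The list was chosen with earlier results of these data known, so its shares are a description. In the quasi-likelihood test 0 were called, 10 had an unadjusted p under 0.05, all in the direction of CD4+Lrig1+ (27.8%, beside 4.18% of all genes tested), limma called 0, and DESeq2 called *Ascl2*, *Plagl1* and *Slc22a2*, all higher, where it called 1.7% of all genes with an adjusted p higher and 0.323% lower. With the table as a term, 13 (36.1%) were called higher and 5 (13.9%) lower, beside the 14.6% and 12.8% of all genes tested. By size, 10 (27.8%) had a log2 ratio of at least 1 in both sets, beside 7.37% of all genes tested, and 2 (5.56%) one of at most -1, beside 3.01%. *Ascl2*, *Slc22a2*, *Snurf* and *Gnasas1* passed the filter only through the CD4+Lrig1+ libraries, so the filter fixed their direction. They were among the 10 with an unadjusted p under 0.05 in the quasi-likelihood test, and *Ascl2* and *Slc22a2* were among the DESeq2 calls. Of the other 32 genes, 9 (28.1%) were called higher with the table as a term and 6 (18.8%) had the ratio of at least 1. The 14.6% and 7.37% of all genes tested still include genes that passed the filter in that way. They are thus not a like baseline for the 32. The median log2 ratio of the 36 genes was 0.22 in set 1 and 0.12 in set 2, beside 0.01 and -0.06 for all genes tested. Whether the listed genes are imprinted in T cells was not measured.

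*Slc22a2* and *Slc22a3*, given above, were among those past this size. *Plagl1*, a zinc finger transcription factor, had 1360 and 449 counts in CD4+Lrig1+ and 30 and 4 in CD4+Lrig1- T cells. The ratio was 41.7 (exact 95% counting interval 29.1 to 62.1) in set 1 and 106 (40.9 to 389) in set 2. *Plagl1* had an adjusted p of 0.658, and 1.56e-05 with the table as a term. *Ascl2*, a transcription factor of follicular helper T cells and intestinal stem cells in the *Kcnq1ot1* domain, had 52 and 187 counts in CD4+Lrig1+ and 7 and 6 in CD4+Lrig1- T cells. *Cd81*, a tetraspanin of the same domain, had 3059 and 6023 counts against 977 and 2132. Both had groups that did not overlap, as did 14.3% of all genes tested in this direction, and *Ascl2* passed the filter only through the CD4+Lrig1+ libraries. The adjusted p-values of *Ascl2* and *Cd81* in the quasi-likelihood test were 0.649 and 0.89 (0.00311 and 3.39e-05 with the table as a term).

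*Phactr2*, a phosphatase and actin regulator next to *Plagl1*, had 3203 and 1755 counts in CD4+Lrig1+ and 701 and 243 in CD4+Lrig1- T cells. *Inpp5f*, an inositol polyphosphate phosphatase, had 5998 and 4235 against 2230 and 1812. *Ddc*, aromatic amino acid decarboxylase, had 279 and 448 against 40 and 98, and *Pon3*, a paraoxonase, had 331 and 587 against 74 and 126. These 4 genes had within-set log2 ratios between 1.14 and 2.75, with adjusted p-values between 0.654 and 0.83, and 7.46e-05 to 0.000464 with the table as a term.

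*Gnasas1*, a noncoding RNA antisense to *Gnas* transcripts, had the zero pattern of *Rian*, with 18 and 14 counts in CD4+Lrig1+ and 0 and 0 in CD4+Lrig1- T cells. This was 5.52-fold and 4.39-fold above the counts that a 0 allows. *Snurf* had 9 and 52 counts in CD4+Lrig1+ and 0 and 0 in CD4+Lrig1- T cells, 2.76-fold and 16.3-fold above the counts that a 0 allows. *Snurf* shares its transcript with *Snrpn*, which had 9 and 0 against 2 and 3 counts, so the division of reads between the pair is uncertain. In the other direction *Qpct*, glutaminyl-peptide cyclotransferase, had 104 and 201 counts in CD4+Lrig1+ and 251 and 570 in CD4+Lrig1- T cells, with ratios of 0.382 and 0.332 and an adjusted p of 0.97 (0.00102 with the table as a term).

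**Figure D4:**
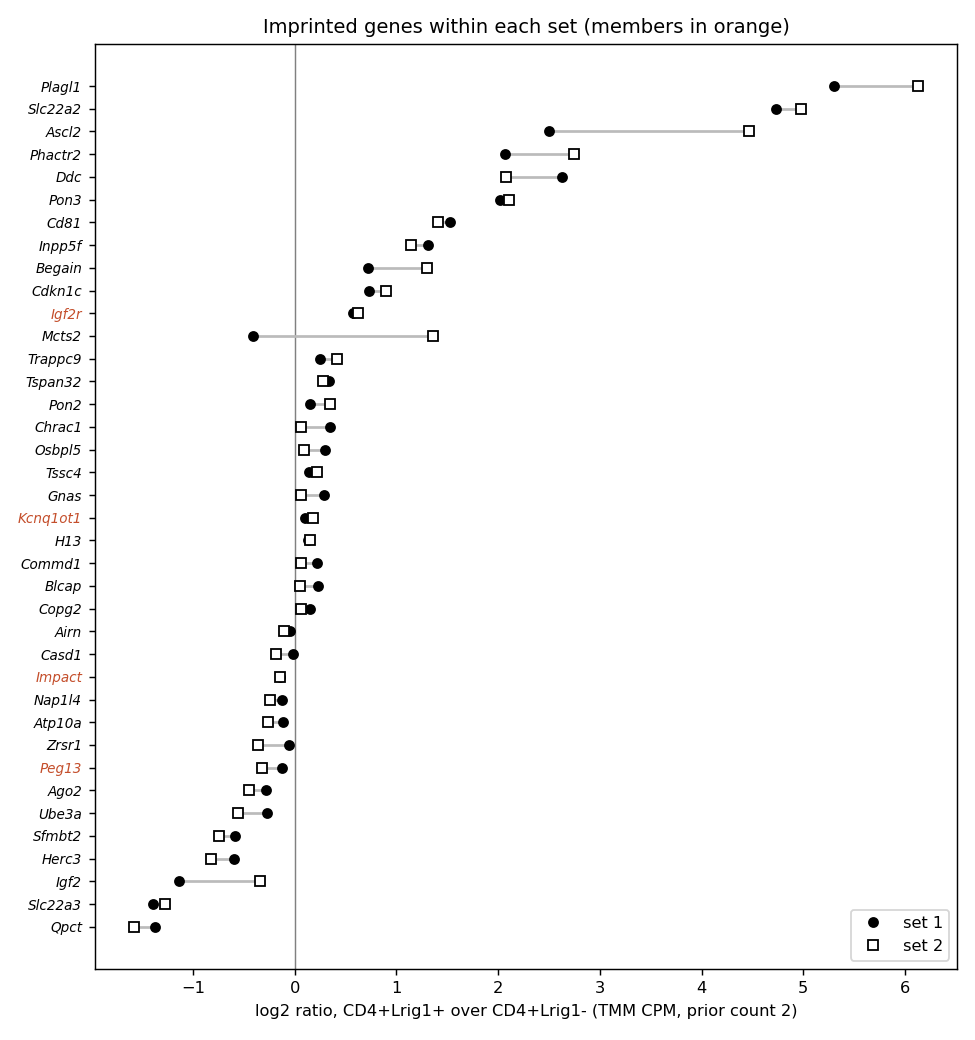
Log2 of the CD4+Lrig1+ value over the CD4+Lrig1- value within set 1 (filled circles) and set 2 (open squares) for 38 imprinted genes with counts in every library, 34 of the list and 4 in orange (*Igf2r*, *Kcnq1ot1*, *Impact*, *Peg13*), joined by a line per gene. *Plagl1* and *Slc22a2* lie farthest to the right in both sets, and *Qpct* and *Slc22a3* farthest to the left by the mean of the sets.

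Genes that maintain imprints were measured as a group of 6. *Dppa3* had 0 counts in all libraries, and *Zfp57*, the zinc finger protein that binds methylated imprinted regions, had 9 counts in the CD4+Lrig1- library of set 1 and 0 in the other 3. *Zfp445*, which has a like role, had 8771 and 3234 counts in CD4+Lrig1+ and 8617 and 3735 in CD4+Lrig1- T cells. *Trim28*, the corepressor both recruit, had 11911 and 15297 against 10573 and 14257, and *Ctcf*, the insulator protein, 10916 and 9518 against 10877 and 10925. *Smchd1*, a chromatin protein that represses imprinted clusters and the inactive X chromosome, had 10196 and 8316 counts in CD4+Lrig1+ and 13160 and 11721 in CD4+Lrig1- T cells. The groups did not overlap for *Smchd1*, as for 11.8% of the genes tested in this direction. *Smchd1* had within-set log2 ratios of -0.49 and -0.58 and an adjusted p of 1.0 (0.00245 with the table as a term). The other 3 that passed the filter had an adjusted p of 1.0 and between 0.112 and 0.8 with the table as a term.

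The genes with profiles most like those of *Rian*, *Meg3* and *Mirg* were found by Euclidean distance between centred log2 CPM over the 4 libraries, outside the interval. *Cep112* was nearest to *Rian* at 0.19, with 179 and 59 counts in CD4+Lrig1+ and 0 and 0 in CD4+Lrig1- T cells, followed by *Gm6831* (0.67) and *C2cd4b* (0.68). *Gm3043* was nearest to *Meg3* with the same 13 and 12 against 0 and 0 counts, followed by *Enox1* (0.09) and *Zbtb32* (0.12). *Zbtb32* had 634 and 553 counts against 74 and 88, so it was not absent from CD4+Lrig1- T cells. *Unc13b* (0.37), *Prss41* (0.42) and *Neil3* (0.45) were nearest to *Mirg*. They had 39 and 8 counts against 10 and 8, 37 and 12 against 7 and 7, and 74 and 25 against 24 and 26. These genes thus had counts in both CD4+Lrig1- libraries. Only genes that passed the filter were compared, and the prior count of 2 narrows differences at low counts. The distances over 4 libraries are a description.

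Markers of other cell types were summed beside these values. In each set all 8 genes of a Treg list were higher in the CD4+Lrig1+ library, with a sum of 2510 and 2330 CPM against 268 and 201. All 6 dendritic cell genes were detected, with a sum of 14.1 and 12.4 CPM against 57.0 and 55.1. Of these, 5 were lower in CD4+Lrig1+ in both sets. *Xcr1* was higher in both, with 0.923 and 1.41 CPM against 0.251 and 0.833. Of 9 stromal and endothelial genes, *Col3a1*, *Pdgfra*, *Dcn* and *Cxcl12* had 0 counts in all libraries, and the sum of the list was 173 and 152 CPM against 209 and 217. *Pecam1*, an endothelial and leukocyte adhesion protein, made up 170.0 and 149.0 against 207.0 and 214.0 of this. *Col1a1* had 66 and 51 counts against 12 and 41. *Cdh5* went the other way, with 19 and 23 counts against 75 and 142, and *Pdgfrb* had 6 and 7 against 3 and 12. *Col1a2*, a fibroblast collagen of that list, had the zero pattern of *Rian*, with 25 and 56 counts in CD4+Lrig1+ and 0 and 0 in CD4+Lrig1- T cells. The sums of the 8 B cell genes (87.4 and 364 CPM against 67.3 and 708), the 9 myeloid genes (40.7 and 189 against 43.4 and 204), the 2 CD8 genes (14.1 and 51.6 against 19.5 and 97.3) and the 7 erythroid and platelet genes (8.1 and 52.6 against 9.08 and 59.5) were higher in set 2 than in set 1 in both groups. The 5 NK cell genes summed to 31.4 and 59.0 against 28.6 and 67.9 CPM, of which *Eomes*, a transcription factor that some T cells also express, made up 24.1 and 41.3 against 4.2 and 9.18, and the other 4 were lower in CD4+Lrig1+ in both sets. The 6 stem and progenitor genes summed to 2.98 and 3.57 CPM against 10.9 and 8.2, of which *Kit* made up 1.83 and 2.11 against 9.06 and 6.94. The part of these cell types in the values of the imprinted genes was not tested.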

How the data were processed

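RNA was sequenced by the authors from CD4+Lrig1+ and CD4+Lrig1- cells sorted from spleen, with a stranded mRNA kit. The submitters' processing notes name Trimmomatic 0.38, Bowtie2 2.3.4.1, HISAT2 2.1.0, StringTie 2.1.3b and the builds GRCm38 and mm10. The estimated counts, FPKM and TPM of 129299 transcripts were made by the authors with StringTie and used as deposited. Estimated counts are whole numbers and not normalized, and FPKM and TPM are scaled by length and library. The third table, whose 6 per-sample columns do not name the group, was left out.

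Counts were summed per gene symbol. Genes were filtered with filterByExpr, normalized by TMM and tested by group with the quasi-likelihood test of edgeR 4.0.16 in R 4.3.3 (limma 3.58.1 and DESeq2 1.42.0 as alternatives), with Benjamini-Hochberg adjustment and a threshold of 0.05. A prior count of 2 was added for log2 ratios between libraries of a set. Every fold of a gene at 0 used a floor of 3 counts per library and took the CD4+Lrig1+ count as exact. Counting intervals of ratios and shares are at 95%. The other alternatives were no filter, at least 10 counts in every library, DESeq2's size factors, limma on log2(FPKM + 1) and log2(FPKM + 0.1), transcripts in place of genes, the table as a term, and fits with any single library dropped. The procedure was run on simulated counts to check the direction of its fold changes. That run does not measure its power on these libraries. The genes named were the 7 genes, their neighbours, interval genes with at least 10 counts, imprinted genes with a log2 ratio of at least 1 in size in both sets, the regulators, and the 3 nearest profiles. The genes and lists were chosen with earlier results of these data known. *Nespas* of the imprinted list was matched to *Gnasas1* as an older symbol.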

Additional observations from a re-analysis of the deposited data

How the results depend on the processing

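Libraries of one table deviated together from their group means (r = 0.883 across genes, which are not independent replicates), but there are only 2 pairs and the columns carry no replicate number. With the table as a replicate block, 2358 genes (14.6%) were called higher and 2056 (12.8%) lower, where 0 were called without it. Of the members, *Igf2r* was called higher. *Meg3* was called higher too, but it passed the filter only through the CD4+Lrig1+ libraries. Of the other imprinted genes tested, 13 (36.1%) were called higher and 5 (13.9%) lower. The 13 include *Ascl2*, *Slc22a2*, *Snurf* and *Gnasas1*, which passed the filter in that same way. DESeq2's Wald test called 263 genes higher and 50 lower, and 3 of the other imprinted genes higher. Leaving out each library in turn gave from 1 to 88 genes higher and from 0 to 2 lower, 0 of the members and from 0 to 2 other imprinted genes (*Phactr2* and *Plagl1* without the CD4+Lrig1- library of set 1, *Plagl1* without the CD4+Lrig1+ library of set 2). A left-out library leaves 1 in its group, which is assumed to vary like the other group. DESeq2's size factors, both filters and limma called 0.

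The log2 fold change of *Impact* ranged from -1.74 to 1.49 and that of *Kcnq1ot1* from -2.27 to 2.59 when a library was left out, since the remaining groups then hold unequal sets, while *Igf2r* stayed between 0.32 and 0.96 and *Peg13* between -0.32 and -0.10. In limma *Impact* was at 0.05 on log2(FPKM + 1) and 0.09 on log2(FPKM + 0.1). By summed FPKM, which divides each transcript's counts by its length, the set 2 log2 ratio of *Impact* was 0.35 in place of -0.14, that of *Peg13* -0.22 and that of *Igf2r* 0.72, and with DESeq2's size factors the set 1 ratio of *Igf2r* was 0.51. *Meg3* failed the filter without either CD4+Lrig1+ library, and *Mirg*, with 6 counts in all, was not tested at this depth.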
